A study of Zea mays with 11 samples.

Results

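MADS-box transcription factors are the proteins that assign identity to floral organs, ovules and parts of the seed. They were followed here through early kernel and endosperm development of maize. The members were all genes whose Arabidopsis match in the deposited table carried the words agamous, sepallata, MADS, shatterproof or seedstick, in either case of letters. This gave 65 genes of the 34145 in the table.

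All plants were of the inbred line Mo17, field-grown and selfed on a single day, with no treatment given in the labels. Whole kernels were taken at 3 and 5 days after pollination (DAP). Hand-dissected endosperm was taken on days 7, 9, 10 and 11 and again on days 13, 15, 20 and 25. Ear leaf of day 13 served as the control tissue. Each of these 11 samples was 1 library of poly(A) RNA, so no stage had a replicate and the spread between plants was not measured. A whole kernel at 3 or 5 DAP still holds the maternal pericarp and nucellus beside the young endosperm and embryo, so tissue and age changed together between 5 and 7 DAP and cannot be told apart. Levels are in FPKM, fragment numbers scaled to transcript length and library size, as the authors calculated them.

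MADS-domain proteins bind DNA as dimers and, in flowers, as larger complexes. In the type II (MIKC) branch, class C genes specify stamens and carpels, class D genes ovules, class E (SEPALLATA) proteins join the other classes as partners, and the AP1/FUL, SOC1 and SVP groups act mainly in meristems and flowering time. In the type I branch, several Arabidopsis genes act in the young endosperm, where AGL62 delays cellularization, and Polycomb complexes are known to repress type I genes in Arabidopsis seeds.

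By their Arabidopsis match, 56 members were type II, 8 were type I, and GRMZM5G854901, matched to AGAMOUS-like 26, was placed in no class. That GRMZM5G854901 is a MADS-box gene rests only on the wording of its match. Of the 65 genes, 29 reached 10 FPKM in at least 1 library, 18 reached 1 but not 10 FPKM, and 18 stayed under 1 FPKM everywhere. The highest value of a gene fell in a kernel library for 40 members, in endosperm for 20 and in leaf for 5. Among the 29 genes that reached 10 FPKM these numbers were 20, 5 and 4. No share over all genes was taken, and the tissues had unequal numbers of libraries. None of the 8 type I genes reached 10 FPKM, whereas 6 of 9 class E and 6 of 10 class C/D genes did. Both genes of the MIKC* class, known from Arabidopsis pollen, stayed under 1 FPKM, GRMZM2G152415 with a highest value of 0.38 and GRMZM2G441115 of 0.03.

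**Figure D1:**
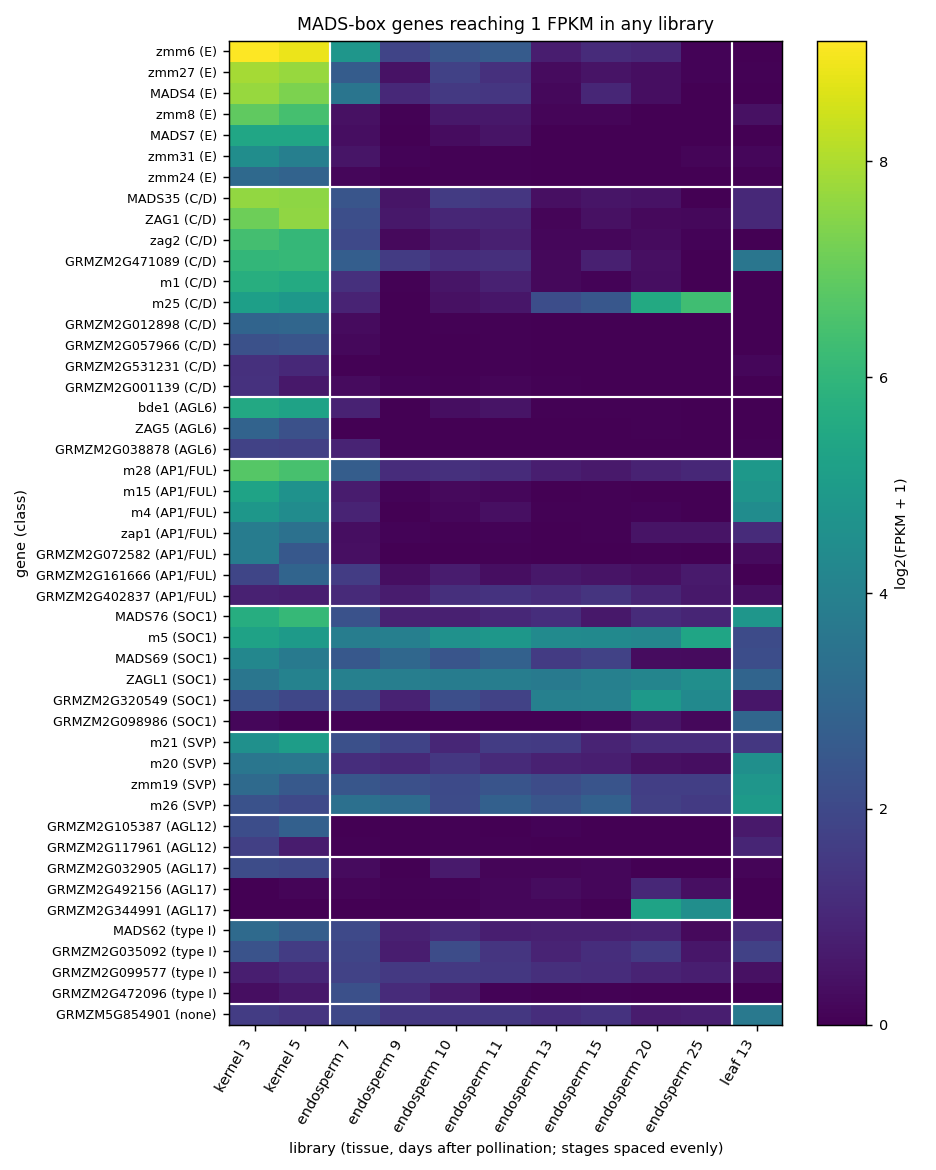
Heat map of log2(FPKM + 1) for the 47 MADS-box genes that reached 1 FPKM in any library. Columns are the 11 libraries in order of tissue and days after pollination, rows are genes grouped by class, and white lines separate tissues and classes; the class E, C/D, AGL6 and most AP1/FUL rows are bright in the kernel columns, and few rows are bright at 20 and 25 DAP.

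The summed FPKM of the 65 members was 2220 at 3 DAP and 1988 at 5 DAP in whole kernels. In endosperm it was 150.5 on day 7, between 69.2 and 90.6 from day 9 to day 15, and 167 and 196 on days 20 and 25. The leaf total was 238. Class E made up 53.7% of the member total at 3 DAP and 49.4% at 5 DAP, and class C/D 26.2% and 30.4%. By 13 DAP the SOC1 group held 66.2% of a much smaller total, and at 25 DAP the SOC1 group held 42.3% and class C/D 40.1%. The total therefore had a different makeup in late endosperm from that in young kernels. The whole table summed to between 273651 and 300271 FPKM per library. FPKM is already scaled to library size, so near-equal sums follow from the measure and say nothing on the MADS total. The number of genes at 1 FPKM or more was 18961 at 3 DAP and 12507 at 25 DAP. Endosperm markers summed to 16.6 and 80.03 FPKM in kernels, 719 to 14387 in endosperm and 9.25 in leaf. Light-harvesting genes summed to 3897 in leaf and at most 6.58 elsewhere. Of 11 endosperm markers compared, 7 were at least 4-fold lower in kernels than at 7 DAP (2.59% of all genes). Single ones differed, as bt2 had 5.32 and 5.53 FPKM in kernels but 0.78 at 7 DAP. The embryo list, of oleosin and LEAFY COTYLEDON matches, summed to 8.41 and 7.78 FPKM in kernels and 38.3 to 167 in endosperm.

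**Figure D2:**
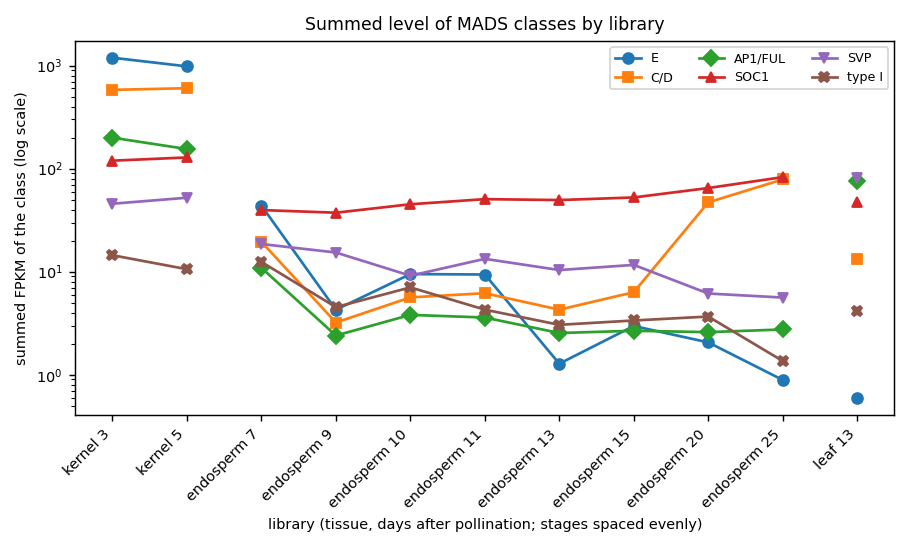
Summed FPKM of the 6 main MADS classes, on a log axis, in each of the 11 libraries; each point is 1 library and lines join stages of the same tissue. Class E lay at 1193 and 983 FPKM in the kernels and at 0.89 FPKM in 25 DAP endosperm, class C/D was higher at 20 and 25 DAP than from 9 to 15 DAP, and the type I sum stayed between 1.36 and 14.4 FPKM.

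Young kernels were first set against 7 DAP endosperm, the earliest dissected stage, by the log2 ratio of (FPKM + 1), which understates the fold of low genes. With 1 library a stage this is a description with no test. Of the 65 members, 43 reached 1 FPKM on at least 1 side. Of these 43, 26 were at least 4-fold higher in the kernel mean (60.5%), where 8.83% of the 19897 genes compared were. No member was at least 4-fold lower, against 2.59% of all genes compared. The median log2 ratio was 2.62 for the members and 0.44 for all genes compared. It was 4.22 for class E, 4.11 for class C/D, 3.30 for AP1/FUL, 1.44 for SVP, 1.25 for SOC1 and -0.41 for type I. In bulk tissue, fewer cells of a type and less RNA per cell cannot be told apart.

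The young kernels were also set against all 8 endosperm stages at once. Both kernel values lay above every endosperm value for 34 of the 46 members that reached 1 FPKM in these libraries (73.9%), against 42.3% of all genes so compared. The opposite, both kernels below every endosperm stage, held for 0 members and for 5.53% of all genes. After quantile normalization it held for 6 members, for which no share over all genes was taken. They were the type I gene GRMZM2G099577, the SOC1-group gene ZAGL1, m26, GRMZM2G402837, GRMZM2G492156 and GRMZM5G854901. As deposited, the highest kernel values of GRMZM2G492156 and GRMZM2G402837 were 0.08 and 0.80 FPKM.

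Class E proteins are the partners that hold floral MADS complexes together, and this class had the highest levels of the family. The gene zmm6 (GRMZM2G159397) was the highest member in the table, with 555 FPKM at 3 DAP and 464 at 5 DAP. In endosperm zmm6 stood at 26.4, 2.70, 4.25, 5.08, 0.67, 1.15, 1.03 and 0.07 FPKM from 7 to 25 DAP, and it was listed at 0 in leaf. Its 7 DAP level was thus 5.19% of the kernel mean, and every later endosperm value was lower still.

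The next class E genes, zmm27 (GRMZM2G129034) and MADS4 (GRMZM2G097059), share with zmm6 the match AGAMOUS-like 9, another name of Arabidopsis SEPALLATA3. The level of zmm27 was 238 and 209.7 FPKM in the kernels, 5.30 at 7 DAP, between 0.07 and 2.38 later in endosperm and 0.03 in leaf. That of MADS4 was 209.1 and 160.5 FPKM, then 10.7 at 7 DAP, between 0.02 and 1.89 later, and 0 in leaf. For both genes the 2 kernel libraries and the endosperm libraries did not overlap.

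A 4th gene with that match, zmm8 (GRMZM2G102161), had 119 and 86.3 FPKM in kernels, 0.32 at 7 DAP and at most 0.52 in any endosperm library, with 0.32 in leaf. RefSeq gives this gene the names zmm8 and zmm14, and zmm6 also the name zmm7; these pairs are close copies whose reads may be shared, so both levels are uncertain. MADS7 (GRMZM2G099522) had 41.5 and 40.8 FPKM in kernels and 0 to 0.39 in endosperm, with a median of 0.01, and 0 in leaf. For zmm31 (GRMZM2G071620) the values were 21.3 and 14.4 FPKM in kernels, 0 to 0.43 in endosperm with a median of 0.04, and 0.13 in leaf. Of the 9 class E genes, 7 could be compared with 7 DAP endosperm. All 7 were at least 4-fold higher in kernels, where 8.83% of all genes compared were. The other 2 stayed under 1 FPKM in every library.

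Class C and D genes specify carpels and ovules, and 9 of the 10 had their highest value in a kernel library. MADS35 (GRMZM2G359952), for which RefSeq also lists the class C name ZMM2, stood at 197 and 188 FPKM in kernels. In endosperm MADS35 had 4.29 FPKM at 7 DAP and 0 to 2.02 later, and in leaf 1.08. ZAG1 (GRMZM2G052890), a maize AGAMOUS gene known for ending growth of the floral meristem, was higher at 5 DAP (193 FPKM) than at 3 DAP (137 FPKM), then 3.62 at 7 DAP, 0.08 to 0.96 later and 1.07 in leaf. The unnamed AGAMOUS match GRMZM2G471089 had 64.7 and 68.5 FPKM in kernels, 5.63 at 7 DAP, 0 to 1.98 later and 11.1 in leaf, the highest leaf level of the class.

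The matches to AGAMOUS-like 5, a SHATTERPROOF gene of Arabidopsis, were also higher in kernels than in any endosperm library. The gene zag2 (GRMZM2G160687) stood at 84.1 and 66.1 FPKM in kernels, 3.03 at 7 DAP, 0.06 to 0.73 later and 0 in leaf. Its close relative m1 (GRMZM2G010669) stood at 51.3 and 46.8 FPKM, then 1.43, 0.02 to 0.77 and 0. Of 9 class C/D genes compared with 7 DAP endosperm, 8 were at least 4-fold higher in kernels, against 8.83% of all genes. The remaining 4 genes of the class, matched to AGAMOUS-like 5 or 11, had highest values of 1.43 to 7.09 FPKM, all in kernels.

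The AGL6 group is an ancient relative of class E, and its maize gene bde1 (bearded-ear, GRMZM2G160565) is known for floral meristem control. Kernels held 44.9 and 37.1 FPKM of bde1, 7 DAP endosperm 0.81, later endosperm 0 to 0.40 and leaf 0. The other members of the group, ZAG5 (6.39 FPKM at most) and GRMZM2G038878 (2.45 at most), were also highest at 3 DAP.

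The kernel-high genes were followed stage by stage as a set. There were 20 members with a kernel mean of at least 10 FPKM and both kernel values above all endosperm values. That choice used the same values, so endosperm levels below the kernel mean were fixed in advance. Each step below compares single libraries, with no share over all genes taken, and many later values lay well below 1 FPKM. Of these 20, 15 were higher at 3 than at 5 DAP. Their level at 7 DAP had a median of 3.31% of the kernel mean, from 0.312% for zmm8 to 31.7% for the SOC1-group gene MADS69. That median was 0.345% on day 9 and stood at 0.845% and 0.974% on days 10 and 11. By day 13 it was 0.128%, and by day 25 it was 0.0603%. From 9 to 10 DAP 14 of the 20 were higher in the later library, and from 11 to 13 DAP 19 were lower, so the decline was not even across the libraries.

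The carpel and integument list was chosen by the words YABBY, CRABS CLAW, INNER NO OUTER or AINTEGUMENTA in the match. It therefore took in AINTEGUMENTA-like genes, and whether these mark carpel or integument was not tested. The list did not move as 1 group in the same libraries. Of its 19 genes, 8 could be compared with 7 DAP endosperm. Of these 8, 3 were at least 4-fold higher in kernels (37.5%, against 8.83% of all genes), all 3 YABBY or CRABS CLAW matches. Each YABBY or CRABS CLAW match that reached 1 FPKM had both kernels above every endosperm stage, as did 42.3% of all genes so compared. Another 1 was at least 4-fold lower (12.5%, against 2.59%). The lower one, the AINTEGUMENTA-like 5 match GRMZM2G317160, had 0.11 and 0.37 FPKM in kernels and up to 12.8 in endosperm. Of the 4 list genes tested within endosperm, all AINTEGUMENTA-like matches, 2 fell and 1 rose. The list summed to 246 and 214 FPKM in the kernels and to between 20.3 and 40.7 in endosperm, of which GRMZM2G130459, matched to AINTEGUMENTA-like 5, alone gave 13.6 to 23.2. The YABBY5 match GRMZM2G116646 had 137 and 129 FPKM in kernels and 1.37, 0.17, 1.02, 1.92, 0.56, 1.24, 1.02 and 0.45 from 7 to 25 DAP. The CRABS CLAW match GRMZM2G088309, from a family that acts in carpels, had 68.0 and 48.8 FPKM in kernels and 0.40, 0.03, 0.26, 0.24, 0.04, 0, 0.12 and 0.03 in endosperm. The YABBY5 and CRABS CLAW matches, at 0.03 to 1.92 FPKM, were lower at 9 than at 10 and 11 DAP. In contrast, GRMZM2G130459 (23.2, 19.1 and 21.1 FPKM) and GRMZM2G317160 (12.8, 10.2 and 6.27) were higher at 9 DAP. So was the list sum (40.7, 39.25 and 35.4 FPKM). Class E summed to 4.27, 9.48 and 9.39 FPKM in the same libraries. The part of remaining maternal tissue in the endosperm values of the floral classes was not tested.

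The change within endosperm was tested by the slope of log2(FPKM + 1) per day over the 8 stages, in limma with Benjamini-Hochberg adjustment over the 15149 genes whose endosperm mean reached 1 FPKM. Departures from a straight line serve as the error, since no stage was replicated. Only 21 members passed that filter, and 44 were not tested. Of the 21, 3 rose (14.3%) and 10 fell (47.6%), where 10.3% of all genes tested rose and 37.4% fell. Both shares of the members lay near those of all genes. A second test of day and day squared together passed 13 of the 21 members, against 54.4% of all genes. The median slope was -0.06 per day for these members and -0.03 for all genes tested.

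All 3 class E genes that were tested fell, where 37.4% of all genes tested did. Of these 3, zmm27 and MADS4 passed the filter only through their 7 DAP value. The slope of zmm6 was -0.19 ± 0.05 per day (SE, adjusted p = 0.013 in limma), that of MADS4 -0.14 ± 0.04 (adjusted p = 0.027) and that of zmm27 -0.10 ± 0.04 (adjusted p = 0.045). In class C/D, GRMZM2G471089 fell by 0.12 per day (SE 0.03, limma adjusted p = 0.012) and MADS35 fell by 0.10 (SE 0.03, adjusted p = 0.03). These genes were near 1 FPKM or below from 13 DAP on. Without the filter on low values zmm6 (limma adjusted p = 0.053), MADS4 (0.085), MADS35 (0.084) and zmm27 (0.12) missed the threshold. With pseudocount 5 zmm27 (0.065) and MADS4 (0.067) missed it, and zmm27 also did under quantile normalization (0.051) and upper quartile scaling (0.053). Without both 20 and 25 DAP zmm27 (0.075), MADS4 (0.057) and MADS35 (0.079) missed it, and zmm27 was called in only 4 of 14 alternatives. Without the 7 DAP library zmm27, MADS4, MADS35 and GRMZM2G471089 fell under the filter and were not tested. That high first value brought them past the filter, so a fall of these genes was partly fixed in advance. Leaving out 20 DAP ended the calls of zmm27 (limma adjusted p = 0.089), MADS4 (0.063) and MADS35 (0.058). Leaving out 10, 11 or 25 DAP ended those of zmm27 (0.086, 0.071, 0.066) and MADS35 (0.06, 0.052, 0.071), and leaving out 15 DAP that of zmm27 (0.061).

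Against this decline, 3 members rose in late endosperm. The class C/D gene m25 (GRMZM2G018589) had 34.8 and 28.04 FPKM in kernels. Its endosperm values were 0.88, 0, 0.33, 0.47, 3.44, 4.62, 45.8 and 78.3 FPKM from 7 to 25 DAP, and it was listed at 0 in leaf. The 25 DAP library thus held more m25 than either kernel library, and m25 was the one class C/D gene with its highest value in endosperm. The slope was 0.38 ± 0.04 per day (SE, limma adjusted p = 0.00063).

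The other class C/D genes did not share this pattern, with 0 to 0.35 FPKM of MADS35, ZAG1, zag2, m1 and GRMZM2G471089 at 20 and 25 DAP. The carpel and integument list, with its AINTEGUMENTA-like matches, summed to 25.4 and 23.7 FPKM in those libraries. At the earlier endosperm stages that list summed to 20.3 to 40.7 FPKM. Within it the CRABS CLAW match had 0.12 and 0.03 FPKM, the YABBY5 match 1.02 and 0.45, and the AINTEGUMENTA-like 6 match GRMZM2G399072, which rose over endosperm development (limma adjusted p = 0.012), 5.40 and 3.07. The 4 genes of the embryo list summed to 44.3 and 53.9 FPKM at 20 and 25 DAP, less than at 10 and 11 DAP (166 and 167). Oleosin and LEAFY COTYLEDON matches made up that list, and the oleosin match GRMZM2G337229 alone gave 121 and 109 FPKM on days 10 and 11 and 18.8 and 40.5 on days 20 and 25. The part of maternal or embryo tissue in the late m25 level was not tested.

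GRMZM2G344991, a gene of the AGL17 group matched to AGAMOUS-like 16, was listed at 0 in both kernels and in leaf. In endosperm it had 0, 0, 0.03, 0.11, 0.13, 0.04, 37.8 and 22.0 FPKM from 7 to 25 DAP. Only the last 2 libraries, 20 and 25 DAP, held more than 0.13 FPKM. The slope was 0.32 ± 0.06 per day (SE, limma adjusted p = 0.0032), but those libraries alone brought the gene past the filter, and without both it could not be fitted. Of the other 10 AGL17-group genes, 8 stayed under 1 FPKM everywhere, and GRMZM2G032905 (3.34 at 3 DAP) and GRMZM2G492156 (1.04 at 20 DAP) had the next highest values.

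The 3rd rising member was GRMZM2G320549, matched to AGAMOUS-like 20, which is Arabidopsis SOC1, an integrator of flowering signals. Its level was 3.87 and 2.81 FPKM in kernels and 2.81, 0.83, 3.62, 2.49, 14.6, 15.3, 29.0 and 19.2 from 7 to 25 DAP, with 0.46 in leaf. All 4 libraries from 13 DAP on lay above all earlier ones. The slope was 0.20 ± 0.05 per day (SE, limma adjusted p = 0.0086). The slopes of m25 and GRMZM2G320549 passed the threshold under all 15 alternatives tried, with limma adjusted p of 0.00055 to 0.042 and 0.0037 to 0.038.

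**Figure D3:**
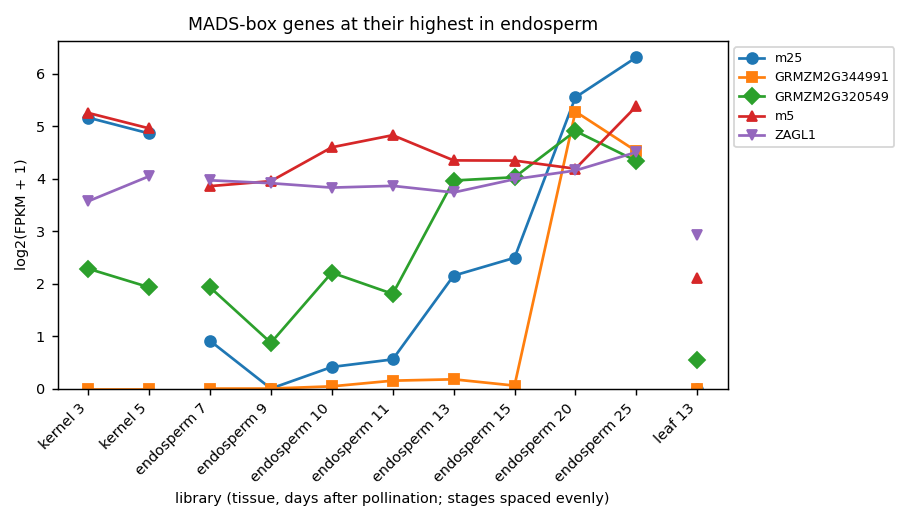
Levels of the 5 MADS-box genes of at least 10 FPKM whose highest value was in endosperm, as log2(FPKM + 1) in each of the 11 libraries; each point is 1 library and lines join stages of the same tissue. The m25 level reached 78.3 FPKM in the last endosperm library, GRMZM2G344991 was at most 0.13 FPKM before 20 DAP, GRMZM2G320549 was higher from 13 DAP on, and m5 and ZAGL1 were present in every library.

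In the SOC1 group, m5 and ZAGL1 were above 10 FPKM in all 8 endosperm libraries. The gene m5 (GRMZM2G171365) had 37.1 and 30.04 FPKM in kernels and 13.5, 14.5, 23.2, 27.4, 19.3, 19.3, 17.2 and 40.6 from 7 to 25 DAP, with 3.29 in leaf. ZAGL1 (GRMZM2G026223), a gene linked to maize flowering time, had 10.9 and 15.5 FPKM in kernels and 14.6, 14.1, 13.2, 13.5, 12.3, 14.9, 16.8 and 21.7 in endosperm, with 6.63 in leaf. Endosperm and kernel values of ZAGL1 overlapped. Neither slope passed the threshold (0.05 ± 0.02 per day for m5, limma adjusted p = 0.098, and 0.03 ± 0.01 for ZAGL1, adjusted p = 0.08). Both passed after quantile normalization (0.0086 and 0.0049) and after upper quartile scaling (0.044 and 0.016), m5 passed without the 20 DAP library (0.037), and ZAGL1 passed without the filter (0.047).

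Of the remaining genes in the SOC1 group that reached 10 FPKM, MADS69 fell and MADS76 did not pass the test. MADS69 (GRMZM2G171650), known as a promoter of flowering in maize, had 17.4 and 12.3 FPKM in kernels, then 4.71, 7.24, 4.30, 6.17, 2.01, 2.51, 0.23 and 0.20 in endosperm and 3.47 in leaf. It fell by 0.16 per day (SE 0.03, limma adjusted p = 0.0015), but the call was lost without 20 and 25 DAP (0.1). MADS76 (GRMZM2G070034) had 50.1 and 67.8 FPKM in kernels, 3.96 at 7 DAP, 0.49 to 1.31 later and 27.0 in leaf, with no slope past the threshold (limma adjusted p = 0.41).

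AP1/FUL genes act in the change from leaf-making to flower-making meristems, and 5 of the 9 reached 10 FPKM, each with its highest value at 3 DAP. Of these 5, 3 also exceeded 10 FPKM in leaf. The gene m28 (GRMZM2G147716) had 104 and 87.8 FPKM in kernels, 5.49 at 7 DAP, 0.54 to 1.39 later and 27.8 in leaf. Its slope did not pass the threshold (limma adjusted p = 0.17, and 0.022 without 20 and 25 DAP). The test of day and day squared did (limma adjusted p = 0.011), but without 7 DAP m28 fell under the filter and was not tested. The gene m15 (GRMZM2G553379) had 37.7 and 23.9 FPKM in kernels, 0 to 0.60 in endosperm with a median of 0.055, and 25.3 in leaf. For m4 (GRMZM2G032339), tied to the floral transition in maize, the values were 27.1 and 20.8 in kernels, 0.02 to 0.89 in endosperm with a median of 0.055, and 20.7 in leaf.

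These 3 genes were thus as high in leaf as in a young kernel, or within 4-fold of it. At 20 and 25 DAP m15 and m4 were at most 0.06 FPKM, and m28 had 0.83 and 1.03 FPKM. Leaf levels were low for zap1 (GRMZM2G148693), the maize APETALA1 gene, with 13.3 and 9.59 FPKM in kernels, 0 to 0.39 in endosperm (median 0.06) and 1.2 in leaf. GRMZM2G072582 had 13.1 and 4.76 FPKM in kernels, 0 to 0.29 in endosperm (median 0.005) and 0.19 in leaf. Of 7 AP1/FUL genes compared with 7 DAP endosperm, 5 were at least 4-fold higher in kernels, against 8.83% of all genes.

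SVP-group genes act in shoots as regulators of flowering, and 3 of the 4 had their highest level in leaf. The gene m26 (GRMZM2G046885) had 3.90 and 3.00 FPKM in kernels, 9.20, 8.08, 3.20, 5.93, 4.32, 5.89, 2.31 and 1.90 in endosperm and 30.3 in leaf. It fell by 0.09 per day in endosperm (SE 0.02, limma adjusted p = 0.011), a call lost after quantile normalization (0.088) and without 20 and 25 DAP (0.36). The gene zmm19 (GRMZM2G370777), whose misexpression gives the leafy glumes of pod corn in Tunicate1 plants, had 7.92 and 4.86 FPKM in kernels, 2.20 to 4.39 in endosperm (median 3.48) and 26.9 in leaf.

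The slope of zmm19 was -0.04 ± 0.01 per day (limma adjusted p = 0.046) and kept its call in only 2 of 15 alternatives; leaving out 1 stage other than 15 DAP gave 0.05 to 0.15. The gene m20 (GRMZM2G059102) had 11.1 and 11.3 FPKM in kernels, 0.26 to 1.82 in endosperm (median 0.93) and 22.6 in leaf. The 4th gene, m21 (GRMZM5G814279), was instead highest in kernels, with 22.8 and 33.1 FPKM, 0.87 to 3.70 in endosperm (median 1.61) and 1.81 in leaf. Its slope did not pass the threshold (limma adjusted p = 0.14).

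**Figure D4:**
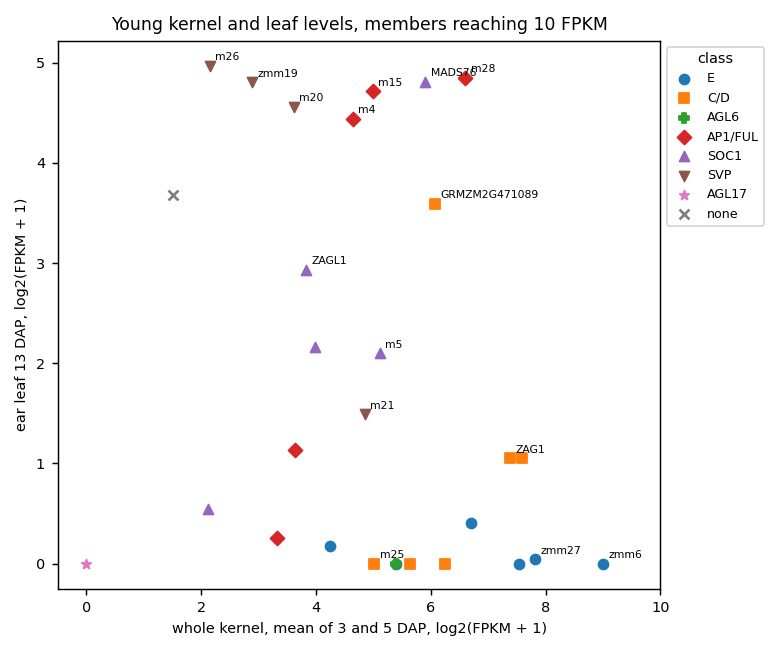
Level of each of the 29 MADS-box genes reaching 10 FPKM in young kernel (x axis, mean of 3 and 5 DAP) and in ear leaf (y axis), both as log2(FPKM + 1), with a marker per class. Class E and most class C/D genes lie along the bottom, near 0 in leaf, while m28, m15, m4, MADS76, m20, zmm19 and m26 lie at the top with 20.7 to 30.3 FPKM in leaf.

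Leaf at 13 DAP was set against endosperm of the same day as the study's control, again with 1 library each and no test. Of 23 members that reached 1 FPKM in either, 10 were at least 4-fold higher in leaf (43.5%), where 18.3% of 18994 genes were. They were m28, m15, m4, MADS76, m20, zmm19, m26, GRMZM2G471089, the SOC1-group gene GRMZM2G098986 (7.13 FPKM in leaf, at most 0.43 elsewhere) and GRMZM5G854901. In the other direction 3 were at least 4-fold lower in leaf (13.0%, against 6.62% of all genes), namely m25, m5 and GRMZM2G320549. No class E gene reached 1 FPKM in either library, and 25 of the 65 members were listed at 0 in leaf.

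GRMZM5G854901, the gene in no class, is counted as a member by the wording of its match alone. This gene had 2.06 and 1.66 FPKM in kernels, 0.62 to 2.91 in endosperm (median 1.64) and 11.8 in leaf. It fell over endosperm development by 0.06 per day (SE 0.01, limma adjusted p = 0.0081), a call lost after quantile normalization (0.13) and without 20 and 25 DAP (0.12).

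Type I genes were set against the floral classes because their Arabidopsis relatives are known from endosperm. Their levels were low throughout, with a summed 14.4 and 10.6 FPKM in kernels, 12.4 on day 7, 3.05 to 7.04 from day 9 to day 20, 1.36 on day 25 and 4.19 in leaf. Of the 8 genes, 4 reached 1 FPKM. None of the 4 was at least 4-fold higher in kernels than in 7 DAP endosperm, where 8.83% of all genes compared were. Their kernel means were 0.39 to 6.73 FPKM, and with 1 FPKM added the lowest could not reach that ratio. This count therefore does not set type I genes apart from all genes. The type I sum held 0.65% of the MADS total at 3 DAP and 8.26% at 7 DAP, a change set mostly by the far lower floral classes at 7 DAP.

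The 4 genes did not share 1 profile. GRMZM2G472096, matched to AGAMOUS-like 61, had 0.28 and 0.50 FPKM in kernels and 3.72, 1.15, 0.57, 0.06, 0, 0.03, 0 and 0 from 7 to 25 DAP, with 0.02 in leaf. It was therefore highest at the earliest dissected stage and at or near 0 from 11 DAP on. Its log2 ratio of kernel to 7 DAP endosperm was -1.76, and its mean over endosperm was too low for the slope test.

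GRMZM2G099577, matched to AGAMOUS-like 62, had 0.72 and 1.01 FPKM in kernels and 2.51, 1.87, 1.88, 1.76, 1.32, 1.25, 0.89 and 0.69 in endosperm, with 0.32 in leaf. It fell by 0.06 per day (SE 0.01, limma adjusted p = 0.0067), a call lost after quantile normalization (0.18) and without 20 and 25 DAP (0.063).

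MADS62 (GRMZM5G878490), with the same match, had the opposite tissue order. It stood at 7.97 and 5.48 FPKM in kernels, 2.99, 0.78, 1.18, 0.70, 0.75, 0.75, 0.85 and 0.18 in endosperm and 1.41 in leaf, and was the only type I gene of the 4 with both kernels above every endosperm stage. GRMZM2G035092, also matched to AGAMOUS-like 62, had 3.98 and 2.05 FPKM in kernels and 2.76, 0.66, 3.38, 1.68, 0.86, 1.31, 1.93 and 0.47 in endosperm, with 2.41 in leaf, so its kernel and endosperm values overlapped. Neither slope passed the threshold (limma adjusted p = 0.055 for MADS62 and 0.23 for GRMZM2G035092). That of MADS62 passed with pseudocount 0.1 (0.031), with log2 of the day (0.028) and without 9 DAP (0.04). The other 4 type I genes had highest values of 0.92 (MADS70), 0.79 (AC234185.1_FG006), 0.12 (MADS42) and 0.06 FPKM (GRMZM2G472100).

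**Figure D5:**
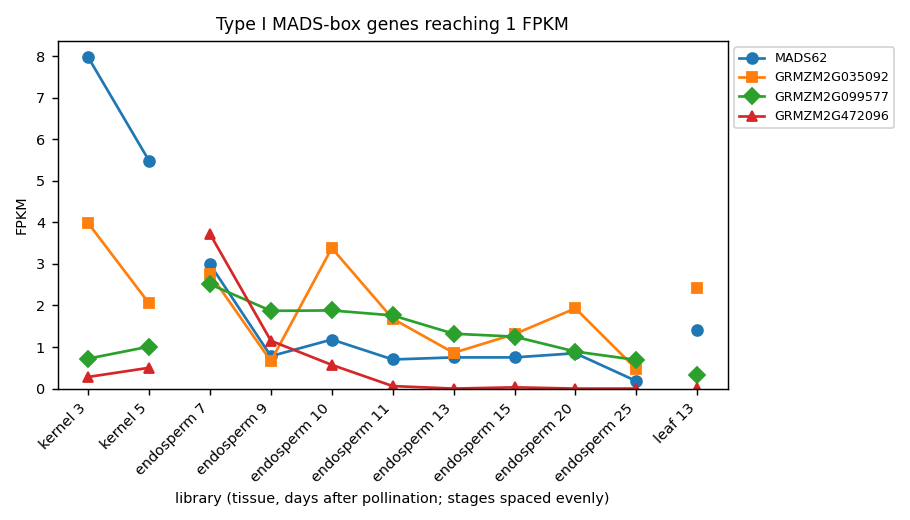
FPKM of the 4 type I MADS-box genes that reached 1 FPKM, in each of the 11 libraries on a linear axis from 0; each point is 1 library and lines join stages of the same tissue. GRMZM2G472096 was highest at 7 DAP (3.72 FPKM) and MADS62 at 3 DAP (7.97 FPKM), and all 4 were below 1 FPKM at 25 DAP.

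Polycomb genes, which repress type I genes in Arabidopsis seeds, gave 5 genes in the table. The endosperm gene fie1 (GRMZM2G118205), whose maternal copy is the active one in maize, had 0.47 and 1.68 FPKM in kernels and 53.2, 69.2, 47.3, 47.1, 16.1, 20.5, 9.69 and 7.49 from 7 to 25 DAP, and 0 in leaf. It fell by 0.18 per day (limma adjusted p = 0.0014) and was the only one of the 5 past the threshold. Among all genes tested 37.4% fell. The 5 genes did not share 1 tissue order. Both kernel values lay above every endosperm value for fie2, mez2 and mez3, and below every endosperm value for fie1 and mez1. Over all genes so compared these shares were 42.3% above and 5.53% below. The kernel values of mez3 (GRMZM2G043484) were 7.53 and 9.31 FPKM, against at most 3.68 in endosperm. Those of mez1 (GRMZM2G157820) were 9.39 and 12.87 FPKM, against 16.64 to 31.42.

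A list chosen by words for floral and ovule partners of MADS proteins held 30 genes. It took in SEUSS, LEUNIG and BELL 1 matches and every BEL1-like homeodomain match. Whether the BEL1-like genes are partners of MADS proteins was not tested. Of 23 compared, 9 were at least 4-fold higher in kernels than in 7 DAP endosperm (39.1%, against 8.83% of all genes). All 9 were BEL1-like homeodomain matches, and no SEUSS, LEUNIG or BELL 1 match reached that ratio. The highest of the 9, GRMZM2G458728, had 36.2 and 38.5 FPKM in kernels, 0.58 at 7 DAP and 42.5 in leaf. Of 12 tested in endosperm, 1 rose (8.33%, near the 10.3% of all genes) and 0 fell (37.4% of all genes). The LEUNIG-homolog match GRMZM2G036169, a co-repressor relative, rose by 0.08 per day, with 8.94 FPKM in the first and 25.98 in the last endosperm library (limma adjusted p = 0.0035).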

How the data were processed

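The deposited table held FPKM values that the authors calculated for 34145 genes in 11 libraries, with 2 decimals. The tools cutadapt, TopHat2 and edgeR are named, per the submitters' processing notes, with no version or role. The genome build, annotation and counting program are each not given in the sources used here. Read counts could not be recovered, so depth is unknown and a 0 means only that a gene was listed at 0. Names came from RefSeq synonyms on Zm-B73-REFERENCE-NAM-5.0, which 42 of the 65 members matched, and no coordinates were used. Near-identical MADS copies may share reads.

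Members, classes and lists were chosen with earlier results of these data known. Every member of at least 10 FPKM was named, as were lower type I and MIKC* genes and those past a test. Slopes over 8 endosperm libraries were fitted to log2(FPKM + 1) with limma 3.58.1 in R 4.3.3 (6 residual degrees of freedom, 5 with day squared; two-sided, Benjamini-Hochberg, threshold 0.05), tested on simulated data. Alternatives were pseudocounts 0.1 and 5, no filter, quantile and upper quartile scaling, log2 of the day and leaving out stages.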

Additional observations from a re-analysis of the deposited data

How the results depend on the processing

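The main counts were 3 members rising, 10 falling and 13 past the test of day and day squared. Without a filter on low values 7 rose, after quantile normalization 5 rose and 5 fell, and after upper quartile scaling 5 rose. Leaving out 1 stage gave 3 to 4 rising, 5 to 10 falling and 7 to 14 past the test of day and day squared, the lowest of the latter counts without 7 DAP, where 4 of the falling genes were under the filter. Without 20 and 25 DAP, an alternative chosen after seeing the data, 4 fell and 5 passed the test of day and day squared. With pseudocount 5, 17 members were at least 4-fold higher in kernel (26 as reported), 5 higher in leaf (10) and 0 lower in leaf (3). With pseudocount 0.1 and after quantile normalization 1 member, GRMZM2G472096, was at least 4-fold lower in kernel (0 as reported). Both kernels lay below every endosperm stage for 6 members after quantile normalization and for 1, ZAGL1, after upper quartile scaling (0 as reported). No share over all genes was taken for the kernel and leaf counts under these alternatives. The slope of MADS76 became 0.0037 after quantile normalization, and that of ZAGL1 became -0.0052 without 20 and 25 DAP. The slope of GRMZM2G402837, an AP1/FUL-group gene of at most 1.56 FPKM, became 0.0102 after quantile normalization and 0.0478 without 20 and 25 DAP, and it lay between -0.0325 and 0.0024 when 1 stage was left out, above 0 without 25 DAP. None of these reversed slopes passed the threshold. The cause of these shifts was not tested. Between 7 and 25 DAP the fitted median change of all genes was -0.61 on the log2 scale as deposited, 0.02 under quantile normalization and -0.42 with upper quartile scaling, and rising genes were 21.6%, 50% and 28.6% of calls. No paired analysis was possible because each stage had 1 library. With depth unknown, values well below 1 FPKM carry no error estimate.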

Other observations

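The words that chose the members leave out maize MADS-box genes whose match carries another name. There were 9 of these by maize symbol or class B and B-sister match, and 6 reached 10 FPKM. The class B gene silky1 (si1, GRMZM2G139073), which specifies stamens and lodicules in maize, was higher in endosperm than in young kernels. It had 2.64 and 1.09 FPKM in kernels, 3.08, 7.92, 5.35, 15.4, 28.8, 24.7, 16.8 and 17.9 from 7 to 25 DAP and 0 in leaf. Both kernel values lay below every endosperm value. Its slope did not pass the threshold (0.10 ± 0.05 per day, limma adjusted p = 0.092), and the test of day and day squared did (adjusted p = 0.0076).

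Its class B partner gene zmm16 (GRMZM2G110153) had 105 and 108 FPKM in kernels and 12.2 to 17.9 in all 8 endosperm libraries, with a median of 15.0 and 1.59 in leaf. No endosperm stage stood apart, and the slope was 0.00 ± 0.01 per day (limma adjusted p = 0.84). The PISTILLATA match MADS18 (GRMZM5G805387) had 117 and 121 FPKM in kernels, 5.77 at 7 DAP, 0.11 to 2.21 later and 0.02 in leaf. Kernel levels of zmm29 (GRMZM2G152862) were 36.8 and 45.8 FPKM, with at most 0.88 in endosperm and 0.08 in leaf. Both of these genes had kernel values above every endosperm value. The B-sister match GRMZM2G005155, of a group known from integuments, had 28.8 and 39.1 FPKM in kernels, at most 2.39 in endosperm and 1.69 in leaf. For zmm17 (GRMZM2G130382) the values were 22.6 and 22.1 in kernels, at most 1.69 in endosperm and 0 in leaf.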
